A study of Mus musculus with 12 samples.

Results

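The genes described here carry out or control the synthesis of cholesterol and fatty acids. The group was defined by name as 28 genes and holds 6 enzymes of the mevalonate steps, 11 of the squalene and sterol steps, 4 regulators or carriers and 7 genes of fatty acid synthesis. All 28 had counts, out of 27292 mouse genes with a count, and all 28 were among the 18780 genes that passed the filter on low counts and were tested. RNA was measured by bulk RNA-seq in 12 organoid cultures grown from the cochlear epithelium of mice at postnatal day 5 (P5), with 3 cultures in each of 4 conditions. All animals carried the R26 rtTA-M2/+ allele, a doxycycline-dependent activator expressed from the ROSA26 locus and so not restricted to a cell type. The control cultures came from littermates with that allele and neither responder transgene. The FST cultures also carried a transgene for human follistatin, an inhibitor of activins. The LIN28B cultures carried a Col1a1-TRE transgene for human LIN28B, an RNA-binding protein that blocks maturation of let-7 microRNAs, and the FST+LIN28B cultures carried both. Every culture, controls included, received doxycycline at 0.5 µg/ml and was expanded for 7 days in Matrigel with EGF, FGF2, the GSK3 inhibitor CHIR99021 and valproic acid (VPA). Per the study's methods the 3 cultures of a condition came from different animals.

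Cholesterol is built from acetyl-CoA through mevalonate and isoprenoid intermediates, which are joined to squalene, folded into lanosterol and trimmed to cholesterol in the endoplasmic reticulum. Fatty acids are built from the same acetyl-CoA by carboxylation, repeated condensation, elongation and desaturation. The transcription factors SREBP1 and SREBP2, encoded by Srebf1 and Srebf2, are held in the endoplasmic reticulum by INSIG proteins when sterols are plentiful and are released to activate these genes when sterols fall, so the enzymes are known to be transcribed together. In the auditory epithelium, as in other tissues, this output supplies membranes of growing and dividing cells.

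The libraries held between 42742090 and 65292639 estimated counts. The FST replicate 2 library stood apart from the other 11: it had the fewest counts, ribosomal protein genes took 3.12% of its counts against 3.85% to 4.47% elsewhere, and its log2 CPM (counts relative to library size, scaled by TMM) correlated with those of FST replicates 1 and 3 at r = 0.951 to 0.958, while all other pairs within a condition were at 0.974 to 0.987. For the main genes the FST difference is therefore given with and without it. The transgenes were detected through the counts assigned to the mouse genes Fst and Lin28b. These counts can understate the human transgenes by an unknown amount. Fst was at 13.1, 7.96 and 7.72 CPM in the control libraries and at 22.5, 19.9 and 17.3 CPM in the LIN28B libraries, which did not overlap. It was at 445, 116 and 326 CPM in the FST libraries and 817, 334 and 719 CPM in the FST+LIN28B libraries. Lin28b was at 16.9 to 24.5 CPM in control and FST libraries. It was at 480.1, 473 and 193 CPM in the LIN28B libraries and at 256, 187 and 306 CPM in the FST+LIN28B libraries. Epithelial and supporting cell markers (6 of 6 detected) summed to between 1198 and 1607 CPM, and mesenchymal markers to between 1107 and 2064 CPM. The mesenchymal sum rested on Dcn and Lum, at 476 to 1124 CPM each. Prrx1 was at 13.1 to 56.1 CPM and the other 6, among them the collagens Col1a1, Col1a2 and Col3a1, were each under 8 CPM in every library. Adipocyte markers, of interest because fat cells make these lipids, summed to at most 2.70 CPM, with Adipoq, Fabp4, Pparg and Cidec each under 1 CPM in every library.

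The regulatory letters next to 3 of the genes are shown first, because Hmgcs1 and Sc5d had the lowest p for any difference in their role groups and Insig1 is the sterol-regulated regulator. They cover 250 bases before to 50 bases after the RefSeq start, 5′ to 3′ on the strand of the gene (RefSeq, GRCm38.p6), at chr13:119690101-119690400 on the plus strand for Hmgcs1, chr5:28071162-28071461 on the plus strand for Insig1 and chr9:42264251-42264550 on the minus strand for Sc5d. Capitals mark matches to 3 motifs searched on both strands: TCACNCCAC, the core letters of a sterol regulatory element, CCAAT, read as ATTGG on the other strand, the letters bound by NF-Y, and CACGTG, an E-box.
Hmgcs1: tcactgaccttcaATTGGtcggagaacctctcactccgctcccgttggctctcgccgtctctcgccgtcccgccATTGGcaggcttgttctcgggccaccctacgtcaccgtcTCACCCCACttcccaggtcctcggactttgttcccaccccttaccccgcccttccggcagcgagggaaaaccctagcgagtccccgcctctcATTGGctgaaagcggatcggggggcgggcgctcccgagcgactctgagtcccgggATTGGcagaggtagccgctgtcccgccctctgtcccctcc
Insig1: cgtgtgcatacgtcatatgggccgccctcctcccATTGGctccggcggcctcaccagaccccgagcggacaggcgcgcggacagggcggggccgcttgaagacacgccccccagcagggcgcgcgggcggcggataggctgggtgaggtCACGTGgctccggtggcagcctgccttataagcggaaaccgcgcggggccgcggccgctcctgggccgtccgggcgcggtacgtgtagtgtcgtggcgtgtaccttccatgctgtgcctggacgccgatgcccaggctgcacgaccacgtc
Sc5d: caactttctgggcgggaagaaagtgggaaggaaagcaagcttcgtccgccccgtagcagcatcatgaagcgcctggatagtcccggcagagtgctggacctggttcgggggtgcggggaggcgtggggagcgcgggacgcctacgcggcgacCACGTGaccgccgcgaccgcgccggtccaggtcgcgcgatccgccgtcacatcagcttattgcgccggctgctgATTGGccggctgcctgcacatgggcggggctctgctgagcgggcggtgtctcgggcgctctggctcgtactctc
Of the 28 genes, 22 had a promoter in the table. Some genes have more than 1 annotated start, and a gene was counted where any of its windows held a match. CCAAT was found for 20 of these 22 genes (90.9%) against 41.1% of 27025 genes with a promoter in the table. CACGTG was found for 4 of 22 (18.2%; Hsd17b7, Sc5d, Dhcr7 and Insig1) against 8.09% of all, and TCACNCCAC for 1 of 22 (4.55%; Hmgcs1) against 1.44% of all. The window of Elovl6 held none of the 3 motifs. The matches in the 3 windows shown do not overlap one another, and a match is a description of the letters in the window.

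Levels between genes were compared per transcript length, in TPM (transcripts scaled for their length and for library size), in the 3 control libraries. Scd2, a stearoyl-CoA desaturase that makes monounsaturated fatty acids, was highest at 745 ± 41.7 TPM (SD, n = 3). It was followed by Fdps, which makes farnesyl diphosphate, at 336 ± 22.5 TPM and Srebf1 at 295 ± 16.6 TPM, and the ranges of Fdps and Srebf1 overlapped. Acly (196 ± 7.36 TPM), which makes cytosolic acetyl-CoA from citrate, overlapped Fasn (191 ± 17.1 TPM), the fatty acid synthase, and Fasn overlapped Hmgcs1 (174 ± 4.34 TPM). Acss2, which makes acetyl-CoA from acetate, was lowest at 18.3 ± 1.12 TPM. Every one of the 28 genes was thus expressed in control organoids, with a spread between the highest and the lowest mean of 745 to 18.3 TPM.

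The first question the design poses is whether either transgene, or both together, changed these genes. None of the 28 was called, that is, had an adjusted p under 0.01 in edgeR's quasi-likelihood test with Benjamini-Hochberg adjustment over all 18780 genes, in any of 8 comparisons. For FST+LIN28B against control 0 of 28 were called where 1.26% of all genes were, and 11 of 28 (39.3%; 9 higher, 2 lower) had an unadjusted p under 0.05 where 15.8% of all genes had. For LIN28B against control 0 of 28 were called beside 3.43% of all genes, and 6 of 28 (21.4%, all higher) had an unadjusted p under 0.05 beside 21.2% of all genes, a share close to the background. For FST against control 0 of 28 were called beside 0.0213% of all genes, and 3 (10.7%, all higher) beside 3.74% had an unadjusted p under 0.05. DESeq2 called 1 of 28 in the first comparison (Elovl6), 1 in the second (Sc5d) and 0 in the third. Limma on log2(TPM + 1) called 1 (Srebf1, lower), 0 and 0.

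The remaining comparisons gave the same count. For FST+LIN28B against LIN28B 0 of 28 were called beside 0.506% of all genes, with 3 at an unadjusted p under 0.05 (2 higher, 1 lower) beside 10.2% of all genes. For the interaction, which asks whether FST acted differently with LIN28B than without it, 0 of 28 were called beside 0.00532%, with 1 at an unadjusted p under 0.05 beside 3.58%. For the mean effect of LIN28B, which sets the LIN28B and FST+LIN28B libraries against the control and FST libraries, 0 of 28 were called beside 7.41%, with 8 (7 higher, 1 lower) at an unadjusted p under 0.05 beside 27.9%. For the mean effect of FST 0 of 28 were called beside 0.724%, with 5 (4 higher, 1 lower) beside 9.7%. For any difference among the 4 conditions 0 of 28 were called beside 5.03%, with 5 beside 21.4%. DESeq2 called Sc5d for the mean effect of LIN28B and for any difference and 0 members in the other 3 comparisons, and limma called 0 in all 5.

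The counts at an unadjusted p under 0.05 depended on single libraries. For FST+LIN28B against control the 11 genes became 3 without FST+LIN28B replicate 3 (12.2% of all genes), 4 without FST+LIN28B replicate 1 (11.7%), 5 without control replicate 3 (11.3%) and 7 without control replicate 2 (12%), and 15 without FST replicate 2 (25.4%). For LIN28B against control the 6 genes became 3 without control replicate 3 (15.4%) or LIN28B replicate 2 (15.9%) and 11 without FST replicate 2 (30.4%). For the mean effect of LIN28B the 8 genes became 3 without control replicate 3 (23.0%) or FST+LIN28B replicate 1 (23.3%) and 4 without control replicate 2 (24.5%) or FST+LIN28B replicate 3 (24.6%). Without FST replicate 2 the count for the mean effect of FST was 15 in place of 5, beside 20.9% of all genes, and that for any difference was 14 in place of 5, beside 33.9%. Over the 12 fits that each omitted 1 library the counts ranged from 1 to 13 for FST against control (2.62% to 17.2% of all genes). They ranged from 1 to 15 for the mean effect of FST (7.49% to 20.9%) and 3 to 11 for the mean effect of LIN28B (23.0% to 32.1%). The ranges were 1 to 14 for any difference (17.1% to 33.9%), 2 to 5 for FST+LIN28B against LIN28B (7.43% to 15.1%) and 0 to 3 for the interaction (2.43% to 10.9%).

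Standard errors of the log2 fold changes against control lay between 0.09 and 0.18, and the 95% intervals of all 28 genes reached no lower than 0.732-fold and no higher than 1.71-fold for FST, 0.719-fold and 1.88-fold for LIN28B, and 0.600-fold and 1.73-fold for FST+LIN28B. The median log2 fold change of the 28 genes was 0.10 for FST (all genes, 0.04), 0.10 for LIN28B (all genes, -0.03) and 0.17 for FST+LIN28B (all genes, -0.01). In that order, 25, 20 and 22 of 28 values were above 0, beside 62.0%, 45.9% and 48.0% of all genes. These 3 comparisons share the same 3 control libraries. Because the libraries are bulk, more RNA of a gene per cell and more cells that express it cannot be told apart.

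**Figure D1:**
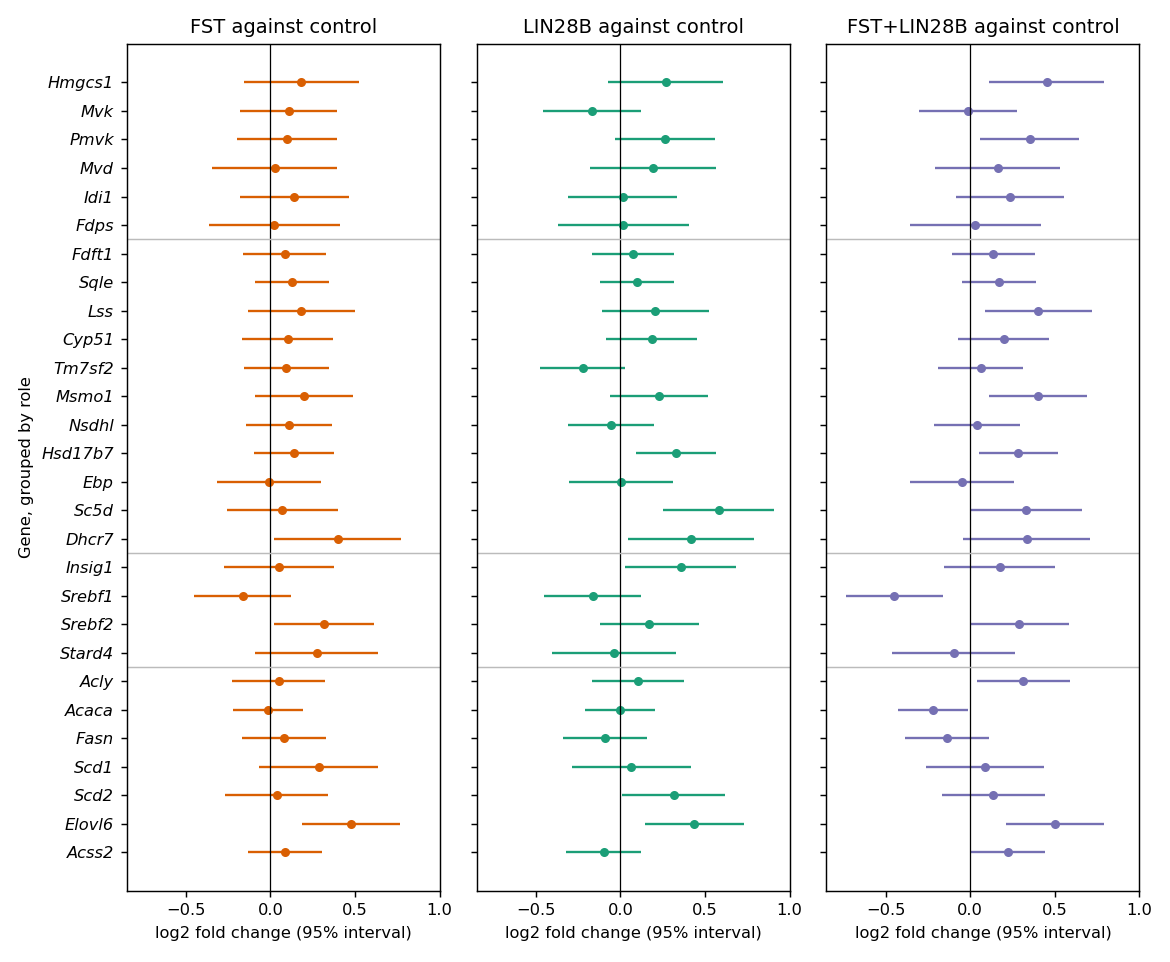
Log2 fold change (points) with its 95% interval (lines) for each of the 28 genes, grouped by role, in FST, LIN28B and FST+LIN28B against control (n = 3 libraries each). Most points sit to the right of 0 (25, 20 and 22 of 28, beside 62.0%, 45.9% and 48.0% of all genes). Elovl6 is right of 0 in every panel with an interval clear of 0, and Srebf1 is the lowest point in the FST+LIN28B panel at -0.45.

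Complete separation from the controls was counted as well, without a model. All 3 FST libraries were above all 3 control libraries for 3 of 28 genes (10.7%; Dhcr7, Scd1 and Elovl6), beside 4.73% of all genes, and below them for 0 (2.91%). All 3 LIN28B libraries were above all controls for 10 genes (35.7%; Hmgcs1, Pmvk, Cyp51, Msmo1, Hsd17b7, Sc5d, Dhcr7, Insig1, Scd2 and Elovl6), beside 18.7% of all genes, and below for 1, Mvk (3.57%), beside 17.9%. All 3 FST+LIN28B libraries were above all controls for 8 genes (28.6%; Hmgcs1, Pmvk, Idi1, Msmo1, Srebf2, Acly, Elovl6 and Acss2), beside 15.2%, and below for 2, Srebf1 and Acaca (7.14%), beside 15.1%. Elovl6 alone was in the higher list of every condition.

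Among the mevalonate steps, Hmgcs1 (GRCm38 chr13:119690379-119708260, plus strand) encodes the cytosolic synthase that makes the precursor of mevalonate. Its level was 321, 336 and 338 CPM in the control libraries and 418, 286 and 425 CPM in the FST libraries. It was 391, 383 and 424 CPM in the LIN28B libraries and 464, 372 and 524 CPM in the FST+LIN28B libraries. The LIN28B and FST+LIN28B libraries were all above the controls, whereas FST replicate 2 was the lowest of all 12 libraries and the other 2 FST libraries were above the controls. The log2 fold change of Hmgcs1 was 0.45 ± 0.16 (SE) with both transgenes (adjusted p = 0.154), 0.27 ± 0.16 (adjusted p = 0.38) in LIN28B and 0.18 ± 0.16 (adjusted p = 1.00) in FST, which was 0.35 ± 0.12 without FST replicate 2. Its interaction had a 95% interval of -0.48 to 0.48 on the log2 scale (adjusted p = 1.00).

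Of the other mevalonate steps, Pmvk, the phosphomevalonate kinase, came closest to Hmgcs1, with 0.35 ± 0.14 (adjusted p = 0.21) in FST+LIN28B and 0.26 ± 0.13 (adjusted p = 0.299) in LIN28B. Mvk, the mevalonate kinase, had 37.8 ± 1.31 CPM in controls and 33.6 ± 2.29 CPM in LIN28B (SD, n = 3), a log2 fold change of -0.17 ± 0.13 (adjusted p = 0.55). Mvd, the decarboxylase that makes isopentenyl diphosphate, Idi1, its isomerase, and Fdps had log2 fold changes between 0.01 and 0.23 over the 3 conditions against control. The 6 genes had a median of 0.10 for FST, 0.11 for LIN28B and 0.20 for FST+LIN28B. Of the 6, 0, 0 and 2 had an unadjusted p under 0.05, beside 3.74%, 21.2% and 15.8% of all genes.

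Among the squalene and sterol steps, Sc5d (chr9:42251595-42264256, minus strand) encodes the desaturase that acts on lathosterol near the end of the pathway. It was at 61.1, 54.0 and 55.9 CPM in controls and at 67.3, 49.3 and 62.9 CPM in FST. It was at 89.9, 89.8 and 76.1 CPM in LIN28B and at 70.3, 58.2 and 86.7 CPM in FST+LIN28B. The 3 LIN28B libraries were above every control and every FST library, whereas FST+LIN28B replicate 2 fell within the control range. Sc5d had the lowest adjusted p of all 28 genes, at 0.58 ± 0.15 in LIN28B (adjusted p = 0.0332) and 0.42 ± 0.11 for the mean effect of LIN28B (adjusted p = 0.0192), neither of which passed 0.01. In FST+LIN28B the value was 0.33 ± 0.15 (adjusted p = 0.307) and in FST 0.07 ± 0.15 (adjusted p = 1.00; 0.19 ± 0.14 without FST replicate 2), and the interaction of -0.32 ± 0.21 did not pass the test (adjusted p = 1.00). Under DESeq2 the LIN28B and mean LIN28B differences of Sc5d, 0.59 and 0.43, were called. Without FST+LIN28B replicate 2 the mean LIN28B difference was 0.51 and was called.

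None of the other 10 sterol genes came as close to the threshold. In LIN28B, Hsd17b7, a ketosteroid reductase of sterol demethylation, was at 66.7, 67.0 and 67.5 CPM against 56.0, 50.5 and 53.5 CPM in controls. These groups did not overlap, and the log2 fold change was 0.33 ± 0.11 (adjusted p = 0.0869). Dhcr7, which makes cholesterol from its last precursor, had 0.42 ± 0.17 in LIN28B (adjusted p = 0.18), 0.40 ± 0.17 in FST (adjusted p = 1.00) and 0.33 ± 0.17 in FST+LIN28B (adjusted p = 0.392). In FST+LIN28B, Msmo1, the methylsterol oxidase, had 0.40 ± 0.13 (adjusted p = 0.135) and Lss, the lanosterol synthase, had 0.40 ± 0.14 (adjusted p = 0.173). Squalene synthase (Fdft1), squalene epoxidase (Sqle) and the lanosterol demethylase Cyp51 had values between 0.08 and 0.20 in the 3 conditions. The sterol reductase Tm7sf2 had -0.22 ± 0.12 in LIN28B (adjusted p = 0.304), and the sterol dehydrogenase Nsdhl and the isomerase Ebp had values between -0.06 and 0.11. The 11 genes had a median of 0.11 for FST, 0.19 for LIN28B and 0.20 for FST+LIN28B. Of the 11, 1, 3 and 4 had an unadjusted p under 0.05, beside 3.74%, 21.2% and 15.8% of all genes.

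**Figure D2:**
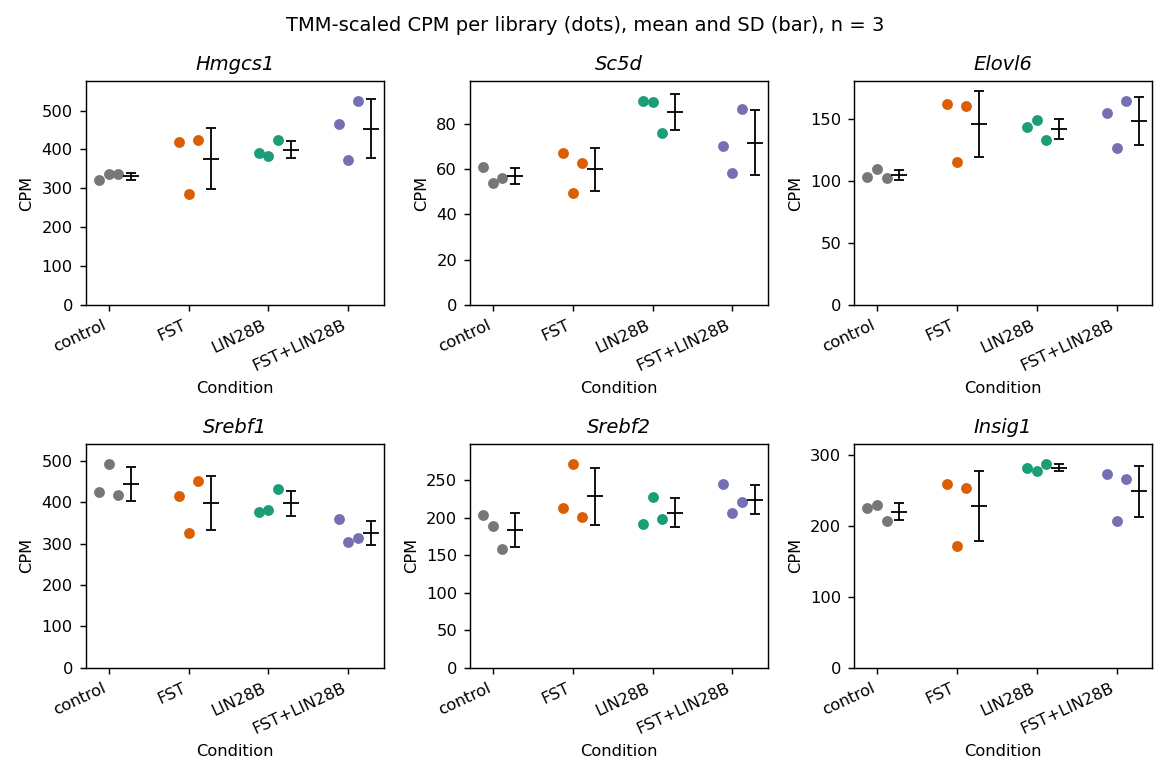
TMM-scaled CPM of Hmgcs1, Sc5d, Elovl6, Srebf1, Srebf2 and Insig1 in every library (dots) with the mean and SD (bars, n = 3) in each condition. Sc5d and Insig1 are highest in the LIN28B libraries, Srebf1 is lowest in FST+LIN28B, and 1 FST library lies below the other FST libraries for every gene except Srebf2, where it is the highest.

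Srebf1 (chr11:60199089-60222581, minus strand), whose SREBP1 product favours fatty acid genes, was at 425, 493 and 418 CPM in controls and at 415, 325 and 453 CPM in FST. It was at 377, 383 and 432 CPM in LIN28B and at 359.7, 305 and 314 CPM in FST+LIN28B. All 3 FST+LIN28B libraries were below all controls, and the FST and LIN28B ranges overlapped the controls. The log2 fold change was -0.45 ± 0.13 in FST+LIN28B (adjusted p = 0.0881), -0.16 ± 0.13 in LIN28B (adjusted p = 0.561) and -0.16 ± 0.13 in FST (adjusted p = 1.00), which was -0.04 ± 0.11 without FST replicate 2. In limma on log2(TPM + 1) the FST+LIN28B difference was -0.48 and was called.

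Srebf2 (chr15:82147181-82205379, plus strand), whose SREBP2 product favours sterol genes, was at 203, 188 and 158 CPM in controls and at 212, 271 and 201 CPM in FST. It was at 192, 228 and 199 CPM in LIN28B and at 245, 207 and 221 CPM in FST+LIN28B. The FST+LIN28B libraries were above the controls, and control replicate 1 overlapped FST and LIN28B. The log2 fold changes were 0.29 ± 0.13 (adjusted p = 0.325), 0.17 ± 0.13 (adjusted p = 0.551) and 0.32 ± 0.13 (adjusted p = 1.00) in FST+LIN28B, LIN28B and FST, and the FST value was 0.17 ± 0.12 without FST replicate 2. Neither Srebf1 nor Srebf2 passed the test in any condition.

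Insig1 (chr5:28071363-28078662, plus strand), a sterol-regulated gene whose product retains SREBPs, was at 225, 229 and 207 CPM in controls and at 259, 172 and 254 CPM in FST. It was at 282, 278 and 288 CPM in LIN28B and at 273, 208 and 266 CPM in FST+LIN28B. The LIN28B libraries were close together and above all controls, while replicate 2 of both FST and FST+LIN28B lay at the lower end of the control range or below it. The log2 fold change was 0.36 ± 0.15 in LIN28B (adjusted p = 0.193), 0.18 ± 0.15 in FST+LIN28B (adjusted p = 0.669) and 0.05 ± 0.15 in FST (adjusted p = 1.00), which was 0.22 ± 0.11 without FST replicate 2. Stard4, a cytosolic sterol carrier, had values of -0.10, -0.04 and 0.27 in FST+LIN28B, LIN28B and FST, none of which passed the test, and the FST value was 0.16 without FST replicate 2.

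Among the genes of fatty acid synthesis, Elovl6 (chr3:129532355-129638495, plus strand), which elongates palmitate, gave the values farthest from control. It was at 103, 109.8 and 103 CPM in controls and at 162, 116 and 161 CPM in FST. It was at 144, 149.6 and 133 CPM in LIN28B and at 155, 127 and 164 CPM in FST+LIN28B. All 9 libraries with a transgene were above all 3 controls, with FST replicate 2 nearest to them. The log2 fold change was 0.50 ± 0.13 in FST+LIN28B (adjusted p = 0.0618), 0.44 ± 0.13 in LIN28B (adjusted p = 0.0671) and 0.47 ± 0.13 in FST (adjusted p = 0.545). The interaction was -0.41 ± 0.19, the sum of the single differences lying above that of FST+LIN28B, and did not pass the test (adjusted p = 1.00). Without FST replicate 2 the FST+LIN28B and LIN28B differences, unchanged in size at 0.50 and 0.44, were called (adjusted p = 0.00725 and 0.008).

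The synthase Fasn was at 903, 901 and 760.3 CPM in controls, 844, 919.9 and 951 CPM in FST, 750.2, 765 and 891 CPM in LIN28B, and 831, 770.5 and 731 CPM in FST+LIN28B. Each transgene condition overlapped the controls, while every FST library was above every FST+LIN28B library. The log2 fold changes against control were 0.08 ± 0.11, -0.09 ± 0.11 and -0.14 ± 0.11 in FST, LIN28B and FST+LIN28B. Acaca, the acetyl-CoA carboxylase that feeds Fasn, was at 249 ± 19.3 CPM in controls and 213 ± 3.26 CPM in FST+LIN28B (SD, n = 3), a log2 fold change of -0.22 ± 0.09 (adjusted p = 0.27).

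The desaturase Scd1 was at 292, 277 and 234 CPM in controls, 347, 294 and 338 CPM in FST, 268, 295 and 278 CPM in LIN28B, and 316, 206 and 332 CPM in FST+LIN28B. The FST libraries were above all controls, by 0.28 ± 0.16 on the log2 scale (adjusted p = 1.00; 0.35 ± 0.17 without FST replicate 2), and the other conditions overlapped the controls. Its paralog Scd2 was at 2561, 2362 and 2189 CPM in controls, 2346, 2398 and 2555 CPM in FST, 2645, 3200.2 and 3002 CPM in LIN28B, and 2687, 2143 and 2981 CPM in FST+LIN28B. The LIN28B libraries were above all controls, by 0.32 ± 0.14 (adjusted p = 0.217), and FST+LIN28B replicate 2 was the lowest of all 12 libraries. The 2 acetyl-CoA suppliers had their largest values in FST+LIN28B, Acly at 0.31 ± 0.13 (adjusted p = 0.234) and Acss2 at 0.22 ± 0.10 (adjusted p = 0.311), and Acss2 had a value of 0.32 ± 0.10 for FST+LIN28B against LIN28B (adjusted p = 0.191).

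**Figure D3:**
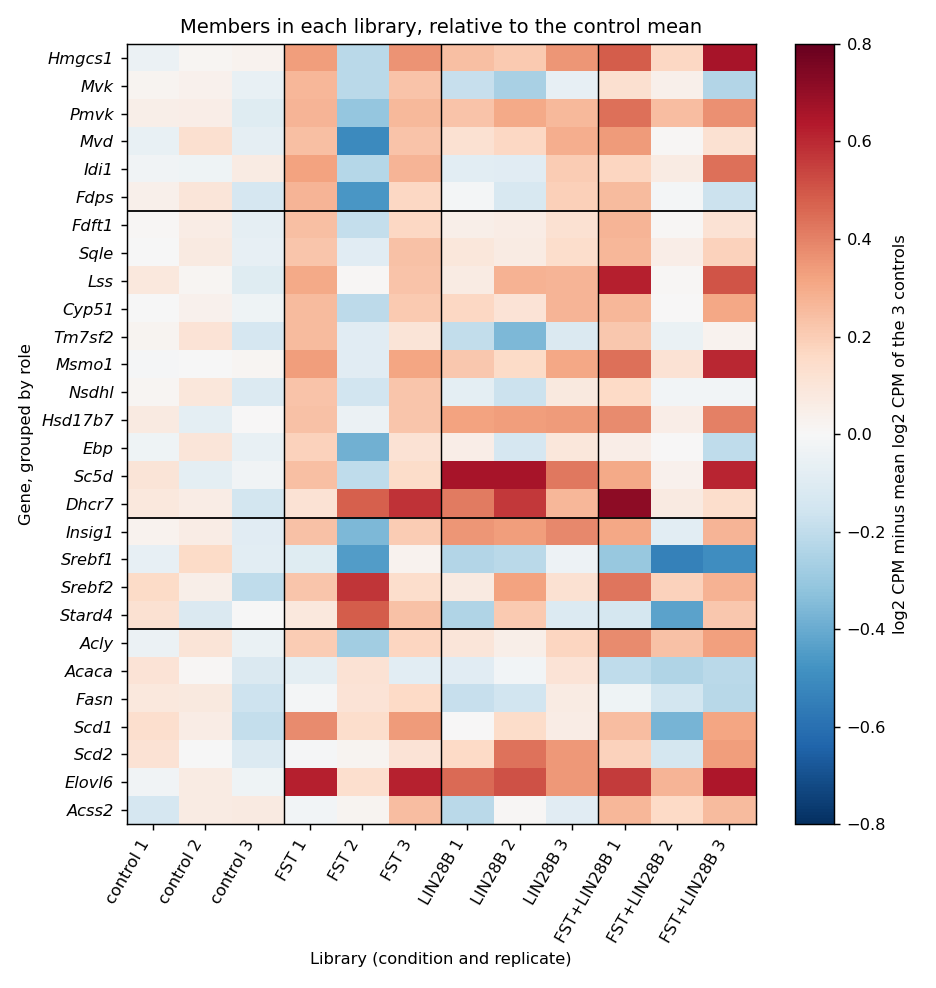
Log2 CPM of each of the 28 genes in each library minus the mean log2 CPM of the 3 controls, with genes grouped by role and libraries by condition (red above, blue below). The column of FST replicate 2 is mostly blue over the mevalonate and sterol genes, while FST replicates 1 and 3 are mostly red.

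The pattern that the averages hide is by library. Over the 17 mevalonate and sterol genes, the median log2 difference from the control mean was 0.25 and 0.23 in FST replicates 1 and 3 but -0.21 in FST replicate 2. It was 0.09, 0.11 and 0.26 in the LIN28B libraries and 0.27, 0.03 and 0.19 in the FST+LIN28B libraries, against -0.07 to 0.05 in the controls. FST replicate 2 was the lowest of the 12 libraries for 13 of 28 genes, 11 of them among these 17, and this was the case for 25.5% of all genes. It was the highest of the 12 for 3 of 28 genes (Srebf2, Stard4 and Acaca), beside 30.4% of all genes. The counts assigned to Fst were also lowest in replicate 2 of each condition with the FST transgene (116 and 334 CPM), and the part of depth, ribosomal protein share or transgene level in these values was not tested.

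**Figure D4:**
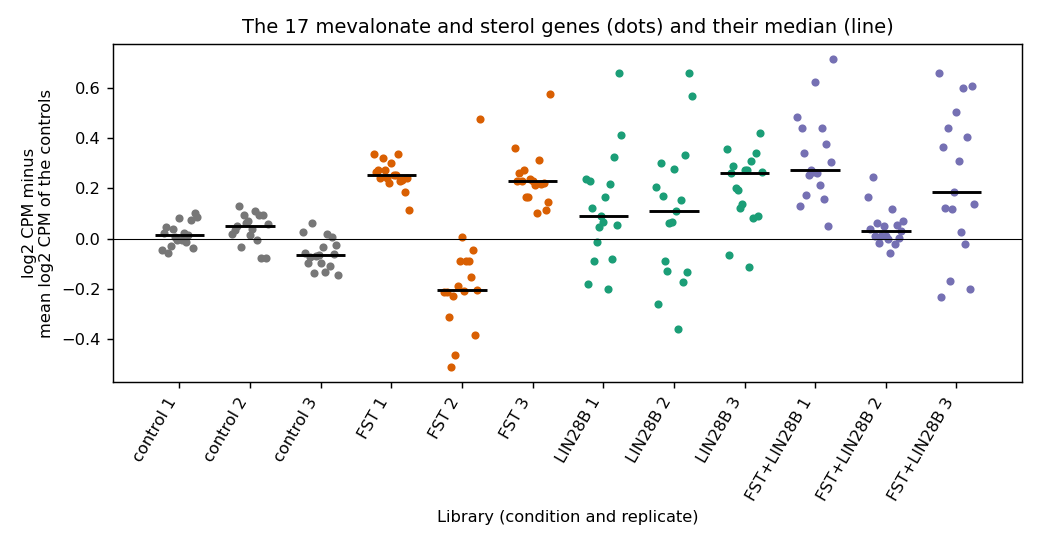
Log2 CPM minus the control mean for the 17 mevalonate and sterol genes (dots) and their median (line) in each of the 12 libraries. The medians of FST replicates 1 and 3 are at 0.25 and 0.23 and that of FST replicate 2 at -0.21, below every other library.

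FST replicates 1 and 3 were above all 3 controls for 20 of 28 genes, 16 of the 17 mevalonate and sterol genes among them (the exception was Tm7sf2), where 24.5% of all genes met the same condition. With FST replicate 2 left out, an alternative added after the values were seen, 13 of 28 genes had an unadjusted p under 0.05 for FST against control, all higher and 11 of them mevalonate or sterol genes, beside 17.2% of all genes. The median log2 fold change of the 28 genes was then 0.22 in place of 0.10, with values between 0.22 and 0.35 for the mevalonate genes and between 0.15 and 0.36 for the sterol genes. Still 0 of 28 were called, the lowest adjusted p being 0.0478 for Elovl6 (0.62 ± 0.10). The number of genes at an unadjusted p under 0.05 for FST against control, 3 with and 13 without it, thus depended on FST replicate 2, and the second number rests on 2 FST libraries.

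The mevalonate and sterol genes tended to vary together across libraries, although not in every pair. After the mean of each condition was removed, the median Pearson correlation between pairs of the 17 genes was 0.74 (136 pairs, -0.35 to 0.98, 12 libraries). It was 0.50 without FST replicate 2 (-0.70 to 0.99). Insig1 had a median correlation of 0.81 with the 17 genes (0.74 without FST replicate 2) and Srebf1 of 0.80 (0.53 without). Srebf2 was at -0.36 with all libraries and at 0.34 without FST replicate 2, so its sign depended on that library. Pairs of the 7 fatty acid genes had a median of 0.27. These values describe 12 libraries that share depth and composition differences, and genes are not independent of one another. Correlations between pairs of genes outside the group were not computed.

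LIN28B is known for blocking let-7 microRNAs, so the 3′ UTRs of the 28 genes were searched for the 7 letters that pair with the let-7 seed, CTACCTC. Of the 28, 4 (14.3%) held a match in their longest 3′ UTR, Mvd, Srebf2, Scd1 and Scd2, against 11.9% of 16395 tested genes with a 3′ UTR. The mature let-7a-5p (RefSeq, GRCm38.p6, seed bases 2 to 8 in capitals, shared with the other mature let-7-5p forms in the table) and the sites (GENCODE M21 transcripts, GRCm38, seed match in capitals) are shown so that the matched letters can be read.
let-7a-5p: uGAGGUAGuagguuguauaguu
Mvd: cttcccaccgatctcCTACCTCaat
Srebf2: cccccaccctcactcCTACCTCcca
Scd1: gcttccagatcctccCTACCTCcaa
Scd2: gataatattcctgacCTACCTCcac
The sites lie at chr8:122437073-122437097 (minus strand), chr15:82204820-82204844 (plus), chr19:44396353-44396377 (minus) and chr19:44306473-44306497 (plus), all within the annotated 3′ UTR. The mean effect of LIN28B on these genes was 0.16 ± 0.12 for Mvd, 0.07 ± 0.10 for Srebf2, -0.07 ± 0.11 for Scd1 and 0.21 ± 0.10 for Scd2 on the log2 scale, and none was called (adjusted p = 0.39, 0.645, 0.731 and 0.197). The Mvd match lies in the transcript Mvd-202, while another, Mvd-201, made up 96.8% to 98.2% of Mvd expression by TPM in the means of the 4 conditions, so the value of Mvd describes mainly a transcript other than the one with the match. A seed match is a description of the letters, and mature let-7 was not measured by these counts.

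Genes around the pathway were read from lists chosen with earlier results of these data known. Of 6 genes that process SREBP proteins (such as Scap, their escort), 12 of the nonsterol branches of mevalonate and 12 of lipogenic supply, 0 were called in any of the 8 comparisons. Of 6 other sterol synthesis genes, Lbr, the lamin B receptor with sterol reductase activity, was called for the mean effect of LIN28B (0.31 ± 0.07, adjusted p = 0.00701), and that call was kept in 6 of 21 alternatives. It was lost when any library other than FST replicate 2 was left out (0.22 to 0.35 over the alternatives, highest adjusted p = 0.0551). The median of these 6 genes for this comparison was 0.07, beside -0.04 over all genes.

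The list on cholesterol efflux, transport and the LXR receptors held the most called genes of these lists. For the mean effect of LIN28B 4 of 17 genes rose (Abca1, Abcg1, Soat1 and Lrp8) and 1 fell (Abca2), beside 7.41% of all genes called. The list's median was 0.12, beside -0.04 over all genes. Abcg1, an exporter of cholesterol and a textbook LXR target, was at 35.2, 36.1 and 35.6 CPM in controls, 26.9, 29.2 and 36.0 CPM in FST, 82.1, 94.4 and 65.2 CPM in LIN28B, and 60.2, 62.1 and 75.0 CPM in FST+LIN28B. All 6 libraries with LIN28B were above all 6 without it, and the mean effect was 1.14 ± 0.10 (adjusted p = 4.49e-05).

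Soat1, which esterifies cholesterol for storage, was at 84.9, 85.5 and 87.4 CPM in controls, 99.1, 122 and 124 CPM in FST, 161, 161 and 138 CPM in LIN28B, and 197, 171 and 332 CPM in FST+LIN28B. The 6 libraries with LIN28B were again above the 6 without it, by 0.93 ± 0.14 (adjusted p = 0.00105). Abca2, a lysosomal lipid transporter, was at 63.3 to 67.6 CPM in controls, 59.2 to 67.8 CPM in FST, 40.6 to 47.6 CPM in LIN28B and 39.5 to 48.8 CPM in FST+LIN28B. It was lower in the 6 libraries with LIN28B, where it fell by 0.53 ± 0.07 on the log2 scale (adjusted p = 0.000422). The calls of Abcg1, Soat1 and Abca2 for the mean effect of LIN28B were kept in all 21 alternatives.

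Abca1, the exporter that loads cholesterol onto lipoproteins, was at 15.9, 14.5 and 16.9 CPM in controls and 10.6, 14.6 and 14.6 CPM in FST. It was at 48.4, 61.9 and 29.6 CPM in LIN28B and 19.6, 14.2 and 28.1 CPM in FST+LIN28B. Its rise was thus large in LIN28B (1.57 ± 0.28, adjusted p = 0.00534), while the FST+LIN28B libraries overlapped the controls (0.39 ± 0.27, adjusted p = 0.572). The interaction of -0.93 ± 0.39 did not pass the test (adjusted p = 1.00). Mean Lin28b counts were 382 CPM in LIN28B and 250 CPM in FST+LIN28B, and their part in the Abca1 values was not tested. The LIN28B call was kept in 13 of 22 alternatives and was lost without control replicate 1, 2 or 3 or LIN28B replicate 1 or 2, with values of 1.20 to 1.83 over the alternatives (highest adjusted p = 0.0291). Of this list, Npc1, which exports cholesterol from lysosomes, was the only gene called for the mean effect of FST, where it fell by 0.42 ± 0.07 (adjusted p = 0.009995), a call kept in 5 of 21 alternatives and lost when any library other than FST replicate 2 or FST+LIN28B replicate 3 was left out (-0.47 to -0.36, highest adjusted p = 0.158). The Lrp8 call (0.46 ± 0.09, adjusted p = 0.0045) was lost when control replicate 3, FST+LIN28B replicates 1 or 3, or the second LIN28B library was left out (0.42 to 0.52, highest adjusted p = 0.0453). Lrp8 encodes a lipoprotein receptor.

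**Figure D5:**
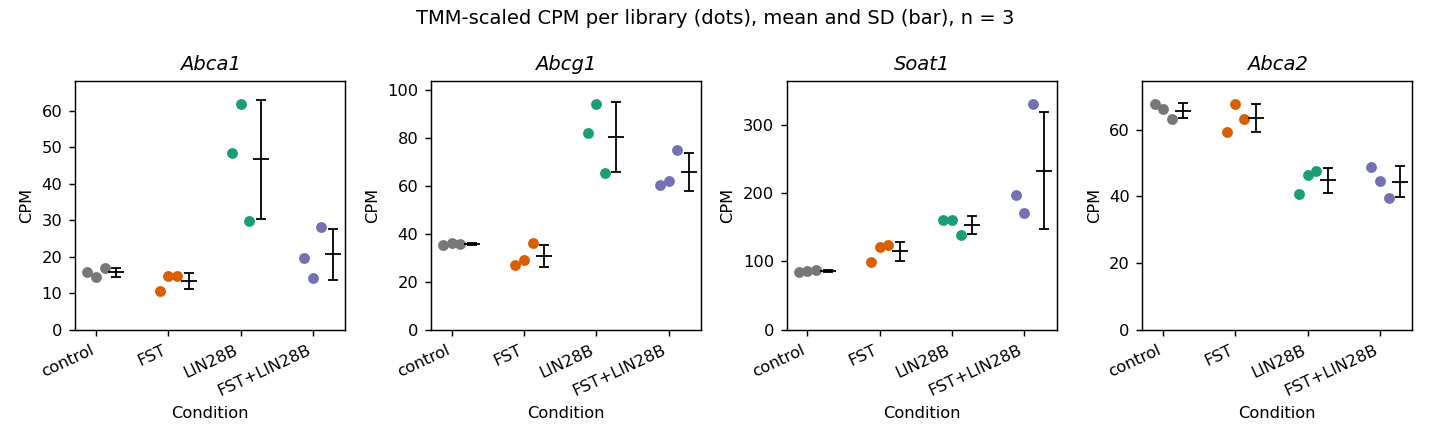
TMM-scaled CPM of Abca1, Abcg1, Soat1 and Abca2 in every library (dots) with the mean and SD (bars, n = 3) in each condition. Abcg1 and Soat1 are higher, and Abca2 lower, in all 6 libraries with the LIN28B transgene than in the 6 without it, while Abca1 is highest in LIN28B and overlaps the controls in FST+LIN28B.

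In the list of other elongases and desaturases, 15 of 16 genes were tested and 1 rose for the mean effect of LIN28B, Elovl2, which elongates polyunsaturated fatty acids (0.85 ± 0.13, adjusted p = 0.00127), beside 7.41% of all genes called. It was at 2.36 to 3.83 CPM in the 6 libraries without LIN28B and 4.45 to 7.25 CPM in the 6 with it, and the call was kept in all 21 alternatives. Of 16 genes of fatty acid activation and glycerolipid synthesis, 3 were called beside the same 7.41%. The acyltransferase Agpat3 (-0.76 ± 0.10, adjusted p = 0.000327) and the phosphatidate phosphatase Lpin2 (-0.32 ± 0.06, adjusted p = 0.00396) fell for the mean effect of LIN28B and Dgat2, which completes triglycerides, rose (1.11 ± 0.20, adjusted p = 0.0034). The Agpat3 call was kept in all 21 alternatives, that of Lpin2 in 7 and that of Dgat2 in 14. Of 16 genes of fatty acid oxidation, 3 were called beside 7.41%. Ehhadh, a peroxisomal enzyme at 0.909 to 3.21 CPM, rose (0.81 ± 0.17, adjusted p = 0.00733), and the mitochondrial enzymes Acadl (-0.51 ± 0.10, adjusted p = 0.00356) and Decr1 (-0.52 ± 0.11, adjusted p = 0.00777) fell, with calls kept in 9, 14 and 9 of 21 alternatives. Ehhadh was also higher in FST (1.73 to 2.15 CPM) than in controls (0.909 to 1.17 CPM). In control, FST, LIN28B and FST+LIN28B, in that order, the means of Decr1 were 18.9, 22.5, 11.9 and 17.3 CPM. Those of Acadl were 42.4, 53.5, 34.2 and 32.5 CPM, and those of Lpin2 were 358, 400, 276 and 334 CPM. The calls of Lpin2, Dgat2, Ehhadh, Acadl and Decr1 were lost with 10, 6, 8, 6 and 11 of the 12 libraries left out in turn, control replicates 2 and 3 and FST+LIN28B replicates 1 and 3 among them for each gene, and none of these genes changed sign. Over the alternatives their values ranged from -0.36 to -0.28, 0.80 to 1.25, 0.38 to 0.91, -0.54 to -0.43 and -0.60 to -0.44, in that order. The medians of these 3 lists were -0.05, 0.01 and -0.04, beside -0.04 over all genes.

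Markers of other cells were read beside these results. The 5 neuron markers summed to 7.28 to 9.84 CPM in the 6 libraries without LIN28B and to 17.2 to 26.2 CPM in the 6 with it, and 2 of 5 (Nefl and Nefm) rose for the mean effect of LIN28B, where 7.41% of all genes were called. None of the 5 was under 1 CPM in every library. Of the epithelial and supporting cell markers 1 of 6, S100a1, fell for the mean effect of LIN28B (-1.11 ± 0.19, adjusted p = 0.00256). S100a1 was at 29.8 to 34.1 CPM in controls, 33.9 to 80.5 CPM in FST and 10.3 to 17.2 CPM in LIN28B. In FST+LIN28B it was at 23.7 to 32.0 CPM, which overlapped the controls. Of the mesenchymal markers 0 of 9 were called. Of the genes chosen as Schwann cell markers, Sox10 was at 144 to 231 CPM in the 6 libraries without LIN28B and at 82.0 to 139 CPM in the 6 with it, so the ranges did not overlap, and it was not called. Mbp was at 61.7 to 80.8 CPM, Pmp22 was under 4 CPM, and Foxd3 was at most 0.0349 CPM. These values do not show which cells the Sox10 counts came from. Immune markers summed to 3.03 to 6.20 CPM, with Ptprc, Tyrobp and Aif1 under 1 CPM throughout, and endothelial markers to 6.77 to 24.1 CPM. The part of neuronal transcripts, or of cells that express Sox10, in the LIN28B results was not tested.

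Several values carry a limit of the counting. The 28 genes had 164 transcripts, 2 to 15 each, to which reads were distributed by estimation. Sequence shared with other genes made up 33.0% of the 31-base words of Acaca, 27.9% of Fdps, 18.8% of Idi1, 14.3% of Fdft1 and 12.4% of Tm7sf2, and 8.09% of Scd1 with 5.18% shared with Scd2, so their counts can be split with copies. Exons of Hmgcs1, Idi1, Fdft1, Lss, Cyp51, Srebf1, Elovl6 and Acss2 overlap an exon of a gene on the other strand, and whether the counting used strand is not given in the sources used here.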

How the data were processed

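Total RNA libraries (stranded kit, paired 50-base reads) were made from 12 organoid cultures. The authors estimated counts per transcript by pseudoalignment in kallisto 0.46.1, using mouse transcripts of Ensembl release v96 (build GRCm38), and deposited these estimated counts together with transcript length and effective length for each library. Whether strand was used is not given in the sources used here. Here the estimated counts were summed per gene through GENCODE M21 (116816 of 118489 transcripts matched, and the rest held 0.543% to 0.598% of counts and were left out), rounded to whole numbers and tested in 1 fit over all 12 libraries with condition as the factor (R 4.3.3, edgeR 4.0.16, TMM, filterByExpr, robust quasi-likelihood test, Benjamini-Hochberg over 18780 genes, called under an adjusted p of 0.01). The method was tested on simulated data. CPM was scaled by TMM, and TPM was computed from counts and effective lengths. Depth was 42742090 to 65292639 counts. Promoters and microRNAs came from RefSeq GRCm38.p6 and 3′ UTRs from GENCODE M21. Standard errors are of log2 fold changes, and intervals are 95%.

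The 28 genes and the lists around them were chosen with earlier results of these data known. Values in every library were given for the gene of lowest p for any difference in each of the 4 roles and for Srebf1, Srebf2, Insig1, Fasn, Scd1 and Scd2. The summed level of the Schwann cell markers is not reported here. Of the lists, called genes were named, at most 4 per list by size of change, except that Lrp8 and Npc1 were added after their values were seen. The p-values rest on the spread between libraries within conditions, estimated over all 12 libraries in 1 fit with information shared across genes. They do not rest on the 3 libraries of a single condition alone. Alternatives were DESeq2 1.42.0, limma 3.58.1 on log2(TPM + 1) and log2(TPM + 0.1), other scalings, filters and thresholds, each comparison fitted on its own libraries, a replicate block and each library left out. The threshold of 0.05 was read on the same fit, so it could not lose a call made at 0.01 or reverse a fold change.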

Additional observations from a re-analysis of the deposited data

How the results depend on the processing

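Of 172 counts of called genes among the 28 under alternative settings, 159 were 0, as in the results above, and the highest was 2. With DESeq2 the count was 1 for FST+LIN28B against control (Elovl6), 1 for LIN28B against control (Sc5d), 1 for the mean effect of LIN28B (Sc5d) and 1 for any difference (Sc5d). With limma at pseudocounts of 1 and 0.1 TPM it was 1 each for FST+LIN28B against control (Srebf1). An adjusted p under 0.05 in place of 0.01 gave 1 for LIN28B against control and 1 for the mean effect of LIN28B (Sc5d in both), and a fit on only the 6 libraries compared gave 2 for LIN28B against control (Sc5d and Elovl6). With a library left out the count ranged from 0 to 1 for FST+LIN28B against control, for LIN28B against control and for any difference (1 without FST replicate 2, Elovl6) and from 0 to 1 for the mean effect of LIN28B (1 without FST+LIN28B replicate 2, Sc5d), and it was 0 throughout for the other 4 comparisons. Of 37 log2 fold changes of 16 genes with an unadjusted p under 0.05, 800 alternative values gave 0 reversals and 12 calls, and the cause of these differences was not tested. With the replicate number as a block the count was 0 in every comparison. The 18 same-numbered pairs had correlations of their deviations from -0.327 to 0.185, with 3 over 0.1. Pairs with different numbers had correlations from -0.233 to 0.249. With 3 libraries a condition, these values cannot settle whether the numbers pair the libraries. Among genes around the pathway, the block ended the calls of Abcg1, Abca2 and Ehhadh in FST+LIN28B and of Abca1, Abca2 and Elovl2 in LIN28B against control, of Lbr, Ehhadh and Decr1 for the mean effect of LIN28B and of Npc1 for that of FST. The number of genes with all FST libraries above all controls was 3, and 20 without FST replicate 2, an alternative chosen after seeing the data. With 3 libraries a condition, log2 differences smaller than the standard errors of 0.09 to 0.18 cannot be resolved, and larger ones can also go uncalled. Sc5d, at 0.58 in LIN28B against control, had an adjusted p of 0.0332 in edgeR's test and was not called at 0.01.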
